A study of Arabidopsis thaliana with 8 samples.

Results

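A drug and a mutation that impair formins were set directly against each other: wild-type Arabidopsis thaliana seedlings given 20 uM SMIFH2 in liquid medium, and seedlings of the fh1-1 mutant kept on solid medium. The comparison rests on 4 of the 8 arrays of the study, the 2 labelled as SMIFH2 in liquid and the 2 labelled as fh1-1 on solid medium, and it was read over 16552 genes. Every group consisted of whole seedlings of the Columbia background aged 7 days, with about 120 seedlings in each of 2 pools described as biological replicates and 1 array per pool. All seedlings grew for 6 days on vertical plates of solid MS medium with 16 h of light and 8 h of dark, and the groups parted on the last day. The fh1-1 seedlings and the wild type on solid medium (wt solid) stayed on plates in long days with no treatment, and this wild type was a backcrossed sister of the mutant line. The SMIFH2 seedlings and the wild-type liquid control (wt liquid) were shaken in liquid medium under continuous light for 1 day. Whether the liquid control held the solvent of the drug is not given in the sources used here.

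Formins are proteins that nucleate actin filaments and stay on the growing end while subunits are added, through a conserved domain called FH2. Plants have a large formin family, and FH1 (AT3G25500) is an Arabidopsis member that spans the plasma membrane and has been studied in root and cotyledon cells. SMIFH2 is a small molecule that inhibits FH2 domains, and in animals it is also known to act on some myosins. The SMIFH2 and fh1-1 groups therefore differed in genotype, drug, medium, shaking and light on the last day, and the shares of these in any difference cannot be told apart from this comparison alone. The wild-type groups on liquid and solid medium differed in medium, shaking and light but in neither impairment, and they share no array with the direct comparison. Seed line and solvent may also have differed between these groups. The sister line is named above for wt solid only, and the solvent of wt liquid is not given. Their difference, called the wild-type medium step below, is given beside each result.

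The deposited values are log2 expression levels from RMA, so a difference of 1 is a 2-fold difference. Array medians lay between 3.89 and 3.96, and their 25th percentile lay between 2.13 and 2.24, which serves below as a guide to low levels. No probe set was listed for FH1, so its transcript gives no check of the mutant label. Of the 8 root markers 6 were measured, with a summed log2 level of 50.59 to 51.06 on the fh1-1 arrays, 50.83 to 51.11 on the SMIFH2 arrays, 53.21 to 54.38 on wt solid and 47.71 to 48.22 on wt liquid. Of the 11 shoot markers 9 were measured, with 67.84 to 69.23 on fh1-1, 68.23 to 69.58 on SMIFH2, 57.24 to 57.57 on wt solid and 62.69 to 64.04 on wt liquid. Both sums overlapped between SMIFH2 and fh1-1, while the shoot sum lay lower in both wild-type groups. RCA, PRK, SBPASE and HPR in the shoot sum are genes of photosynthesis or photorespiration. None of these markers passed the test between SMIFH2 and fh1-1, and the 95% interval of each held 0. The root hair markers EXPA7 and EXPA18, the 2 measured of 8, summed to 8.27 to 9.12 on fh1-1 and 7.79 to 8.52 on SMIFH2, and the pollen marker VGD1 stood at 1.59 to 1.83 on these 4 arrays, a low level. In whole seedlings, fewer cells of a type and less RNA per cell cannot be told apart.

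By median difference and correlation, the SMIFH2 and fh1-1 arrays lay almost as close to each other as the arrays of a single group. Over the 16552 genes the 4 pairs of a SMIFH2 and an fh1-1 array had a median absolute log2 difference of 0.176 to 0.183. The 2 fh1-1 arrays differed from each other by 0.150, the 2 SMIFH2 arrays by 0.171, the 2 wt solid arrays by 0.184 and the 2 wt liquid arrays by 0.204. The pairs of a wild-type liquid and a wild-type solid array lay further apart, at 0.226 to 0.247. The pairs of an impaired array with its own wild type were further apart again, at 0.284 to 0.315 for fh1-1 and 0.258 to 0.297 for SMIFH2. Pearson's r, across genes that are not independent and all from 1 array type, was 0.990 in the SMIFH2 and fh1-1 pairs, 0.993 and 0.992 within these groups, and 0.977 to 0.981 between the wild-type groups. Genes at least 2-fold apart numbered 131 to 148 in the SMIFH2 and fh1-1 pairs, against 39 within fh1-1 and 67 within SMIFH2. They numbered 131 within wt solid, 200 within wt liquid and 530 to 765 between the wild-type groups. The closest array of each of the 8 was still its partner in its own group. With 2 arrays against 2 an exact permutation test cannot give a p under 0.33, so these distances are a description.

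**Figure D1:**
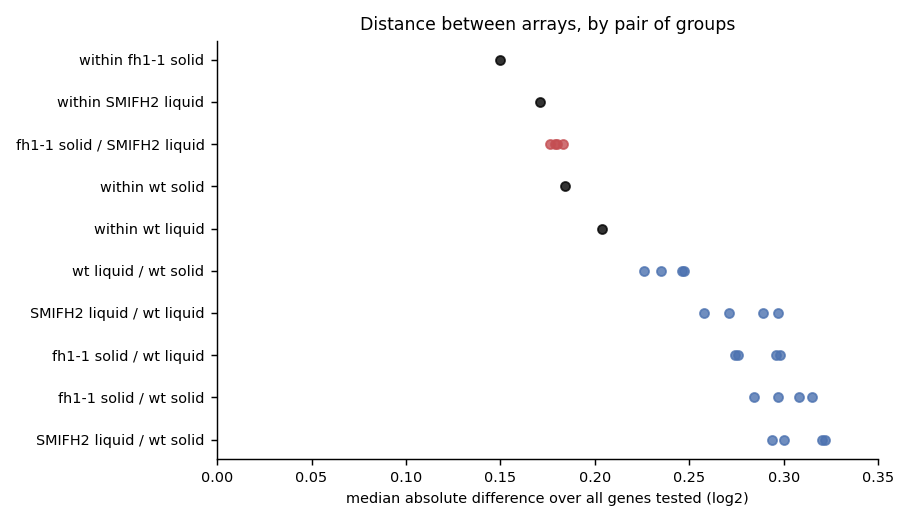
Median absolute log2 difference over all genes tested for each pair of arrays (points), by the groups the 2 arrays come from. The 4 pairs of an fh1-1 and a SMIFH2 array, at 0.176 to 0.183, sit between the pairs within groups, at 0.150 to 0.204, and left of every other pair of unlike groups.

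Gene by gene, 64 genes differed at least 2-fold between SMIFH2 and fh1-1, 46 of them higher with SMIFH2 and 18 lower. The same 2-fold difference was reached by 403 genes between the wild-type groups, 1429 between fh1-1 and its wild type and 939 between SMIFH2 and its liquid control. The median absolute difference of the group means was 0.138, against 0.191, 0.261 and 0.231 in these 3 comparisons in turn. The limma 95% interval of the SMIFH2 minus fh1-1 difference lay within 2-fold either way for 15725 genes, or 95%, and beyond 2-fold for 15. In the same 3 comparisons in turn it lay within 2-fold for 87.8%, 76.3% and 81.4% of genes, and beyond it for 117, 651 and 381. The closeness held at high levels too. Among the third of genes with the highest mean level, from 5.10 to 13.03, the median absolute difference was 0.118, against 0.410 between fh1-1 and its wild type. Over all 38408 probe sets, most of them without a gene name here, 677 differed at least 2-fold and 29592, or 77%, had an interval within 2-fold.

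The genes that set the 4 groups furthest apart were close in most cases, though less so than genes at large. Of the 100 genes with the widest range of group means, from 3.03 to 5.81, 90 differed by less than 2-fold between SMIFH2 and fh1-1 and 4 passed the test of that difference, which 0.145% of all genes passed. Their median absolute difference was 0.341, against 0.138 over all genes, of which 0.387% differed at least 2-fold. These contrasts with all genes are partly fixed by the choice, since the SMIFH2 and fh1-1 means are among the 4 group means that set the range. The named gene with the widest range was THI2.2 (AT5G36910), which encodes a thionin, a small antimicrobial peptide. Its log2 level was 1.93 and 2.34 on wt solid, 3.24 and 3.07 on wt liquid, 8.08 and 7.71 on fh1-1 and 7.83 and 8.06 on SMIFH2. The impaired arrays overlapped at a high level, far above both wild types, and SMIFH2 minus fh1-1 was 0.04 ± 0.20 (SE, n = 2 arrays per group; 95% interval -0.39 to 0.48).

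PIF7 (AT5G61270), a phytochrome-interacting transcription factor of shade and temperature responses, stood at 2.76 and 2.43 on wt solid, 3.0 and 3.14 on wt liquid, 6.85 and 6.73 on fh1-1 and 6.70 and 6.60 on SMIFH2. Its difference between the impaired groups was -0.14 ± 0.16 (interval -0.51 to 0.22). MGL (AT1G64660), the methionine gamma-lyase that degrades methionine, showed the opposite pattern, with 8.17 and 8.08 on wt solid, 8.49 and 7.99 on wt liquid, 4.36 and 4.08 on fh1-1 and 4.38 and 4.36 on SMIFH2. Here the impaired arrays were the low ones, and they differed by 0.15 ± 0.19 (interval -0.28 to 0.57). GSTU20 (AT1G78370), a tau-class glutathione transferase, read 8.77 and 8.65 on fh1-1 and 8.57 and 8.59 on SMIFH2, over 4.12 and 3.46 on wt solid and 5.15 and 5.86 on wt liquid. The SMIFH2 values of GSTU20 lay just under the fh1-1 values, a difference of -0.13 ± 0.26 (interval -0.71 to 0.45). FLP1 read 2.28 and 2.44 on fh1-1 and 1.53 and 2.07 on SMIFH2, the SMIFH2 values under the 25th percentile, against 5.38 to 6.50 on the 4 wild-type arrays; its difference was -0.56 ± 0.28 (interval -1.18 to 0.05).

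LHB1B2 (AT2G34420), a chlorophyll-binding protein of the photosystem II antenna with closely similar gene copies that a probe set may not tell apart, gave the sharpest case of convergence. It stood at 5.77 and 6.26 on wt solid and 9.31 and 9.49 on wt liquid, a wild-type medium step of 3.38, but at 10.88 and 10.80 on fh1-1 and 10.94 and 10.94 on SMIFH2. The impaired arrays lay above both wild types and within 0.10 ± 0.18 of each other (interval -0.31 to 0.51). The 2 steps differed by -3.29 in the limma test of their difference (adjusted p = 0.0016), and this passed with any 1 array left out but not over every probe set (adjusted p = 0.06, in a range from 5e-06 to 0.06 over 15 alternatives). AOP3 (AT4G03050), an enzyme that modifies glucosinolate side chains, read 7.61 and 7.54 on fh1-1 and 8.14 and 8.12 on SMIFH2, against 2.88 and 3.31 on wt solid and 2.96 and 5.07 on wt liquid. Its SMIFH2 values were the higher ones without overlap, by 0.55 ± 0.50, but the wt liquid arrays show how far single arrays of this gene can part (interval -0.57 to 1.68). ECS1 (AT1G31580), which encodes a cell wall protein, was the widest of these genes between the impaired groups, at 7.02 and 6.44 on fh1-1 and 7.88 and 8.35 on SMIFH2, with 1.82 and 2.93 on wt solid and 8.13 and 6.64 on wt liquid. Its difference of 1.38 ± 0.47 did not pass limma's test over all genes (adjusted p = 0.54; interval 0.32 to 2.44).

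**Figure D2:**
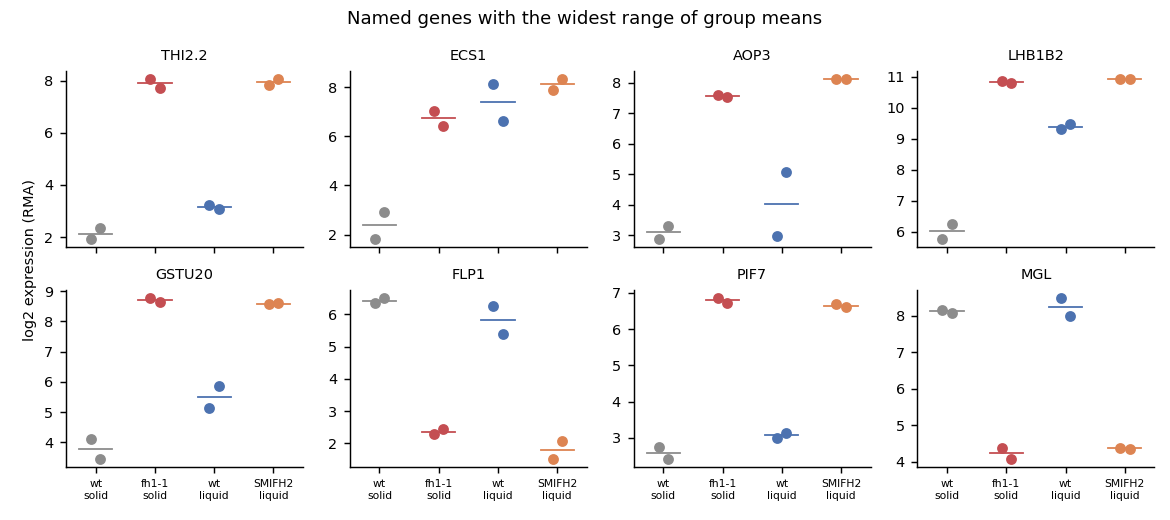
RMA log2 expression of the 8 named genes with the widest range of group means, by group; points are single arrays and bars are group means, and each panel has its own vertical scale. In THI2.2, LHB1B2, GSTU20, PIF7 and MGL the fh1-1 and SMIFH2 means lie within 0.15 of each other although the wild-type groups stand elsewhere.

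Against this background 24 genes differed between SMIFH2 and fh1-1 at an adjusted p under 0.05 in limma, or 0.145% of the genes tested. With SMIFH2 19 were higher (0.115%) and 5 were lower (0.0302%). The wild-type medium step gave 779 genes (4.71%), the step from wild type to fh1-1 gave 3734 (22.6%) and the step from liquid control to SMIFH2 gave 2459 (14.9%). The difference of the 24 was 1.94-fold to 5.26-fold, adjusted p ran from 0.0035 to 0.046, and the arrays of the 2 groups did not overlap in any of them, as in 40.6% of all genes. Only 4 of the 24, PDF1.4, BGLU25, CSA1 and BGLU28, have a symbol; the other 20 are known here by locus code, and no role is given to them except a RefSeq synonym for AT1G18830. At an unadjusted p under 0.05 the direct comparison gave 1201 genes (7.26%). The fh1-1 count was 2056 and 2297 without fh1-1 array 1 and 2 and 2326 without wt solid array 2. The SMIFH2 count was 1250 and 1406 without SMIFH2 array 1 and 2 and 1565 without wt liquid array 1.

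The 24 calls are few and depend on every array of the comparison. Without either fh1-1 array or without SMIFH2 array 2, limma called 0 genes (839, 860 and 1077 at an unadjusted p under 0.05), without SMIFH2 array 1 it called 5, and over every probe set it called 0 (2509 unadjusted, smallest adjusted p 0.094). With 1 of these 4 arrays left out, 20 of the 24 missed the threshold each time and BGLU25, AT2G43620, AT1G66920 and AT1G65500 passed only without SMIFH2 array 1 (adjusted p 0.04 to 0.38 over these fits); 16 of the 24 remained without either wt solid array and 21 without either wt liquid array. All 24 kept their direction in each of the 16 alternatives in which they were tested, and their size moved by less than 1.5 times. This was largely fixed in advance. Many alternatives change the spread and not the group means, and arrays that do not overlap cannot reverse when 1 is left out.

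**Figure D3:**
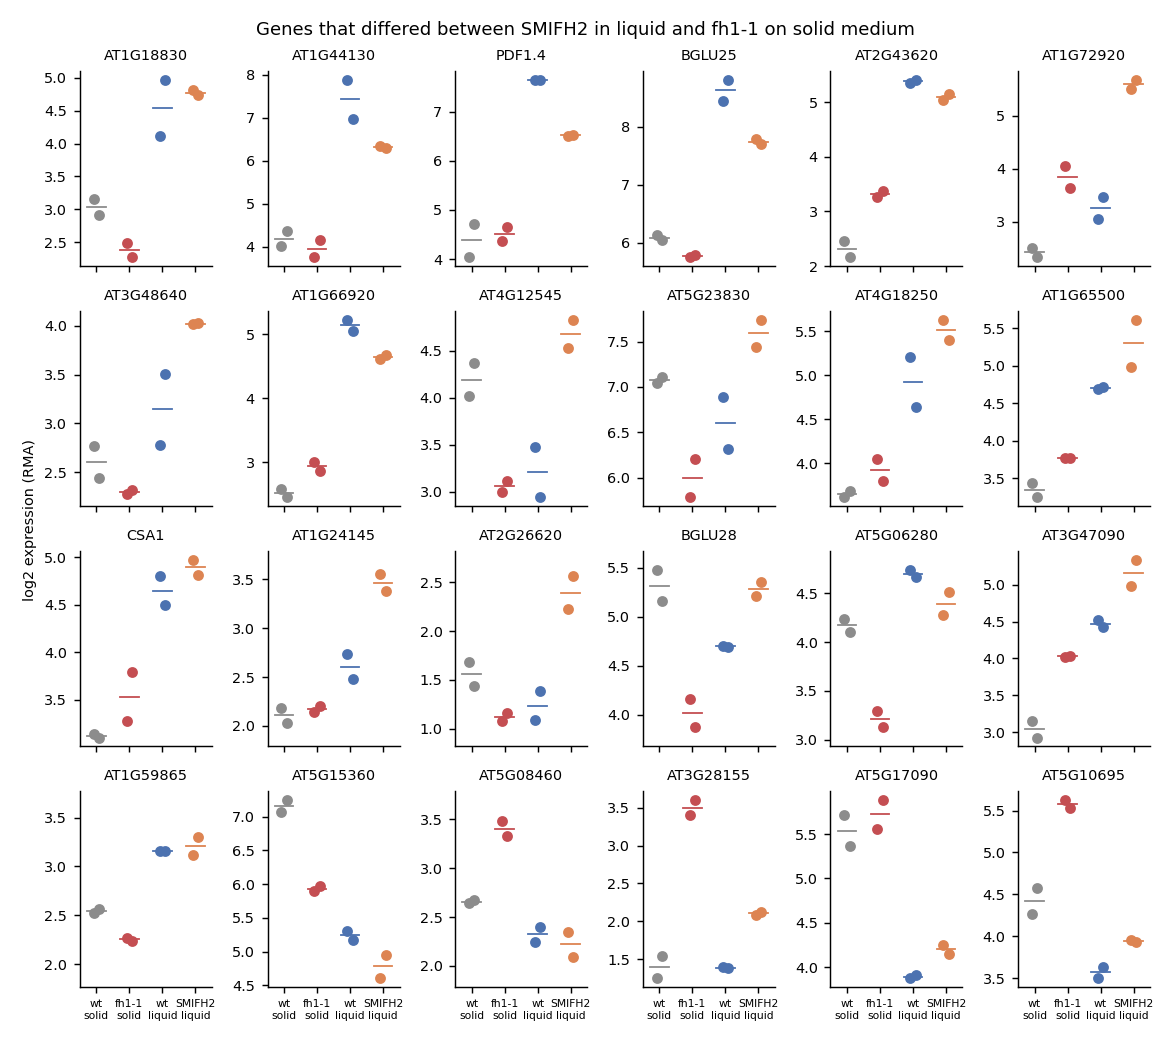
RMA log2 expression of the 24 genes with an adjusted p under 0.05, by group, in order of the SMIFH2 minus fh1-1 difference; points are single arrays, bars are group means, and each panel has its own vertical scale. In PDF1.4, BGLU25, AT1G44130 and AT1G66920 the 2 liquid groups stand high together and the 2 solid groups low together. In AT2G43620 fh1-1 stands between wt solid and the liquid groups.

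The largest class of the 24 had the direction of the wild-type medium step, which includes shaking and light and may include seed line and solvent. Of the 19 higher genes 12 were also called higher in wild-type liquid than on wild-type solid medium (2.22% of all genes). Of the 5 lower genes 3 were also called lower there (2.48% of all genes). Both calls use 1 spread per gene from all 8 arrays, so a gene of small spread passes more readily in each. Of the 24, 11 were also called between fh1-1 and wt solid (22.6% of all genes). Between SMIFH2 and liquid control 12 were called (14.9%), and 7 were called in neither. Each of these comparisons shares a group with the direct one, so these shares too are partly fixed by the choice. PDF1.4 (AT1G19610), a plant defensin, stood at 4.04 and 4.72 on wt solid, 4.36 and 4.65 on fh1-1, 7.64 and 7.66 on wt liquid and 6.50 and 6.54 on SMIFH2. The solid arrays of both genotypes overlapped, and both liquid groups lay well above them, the untreated one higher. From liquid control to SMIFH2 the gene changed by -1.13 (limma adjusted p = 0.0068). SMIFH2 minus fh1-1 was 2.01 ± 0.22 (SE, n = 2 arrays per group; limma adjusted p = 0.01), beside a wild-type medium step of 3.27, and the difference of the steps was -1.26 (adjusted p = 0.11).

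BGLU25 (AT3G03640), a beta-glucosidase, read 6.12 and 6.05 on wt solid, 5.74 and 5.79 on fh1-1, 8.45 and 8.82 on wt liquid and 7.79 and 7.70 on SMIFH2. Again the 4 liquid arrays were the high ones, and SMIFH2 exceeded fh1-1 by 1.98 ± 0.16 (limma adjusted p = 0.0035). The wild-type step of BGLU25 was 2.55, and the steps differed by -0.57 (adjusted p = 0.35). From liquid control to SMIFH2 it changed by -0.89 (limma adjusted p = 0.0054). CSA1 (AT5G17880), a TIR-type immune receptor of the nucleotide-binding leucine-rich repeat class, read 3.14 and 3.10 on wt solid, 3.27 and 3.80 on fh1-1, 4.80 and 4.50 on wt liquid and 4.98 and 4.82 on SMIFH2. It differed by 1.36 ± 0.20 (limma adjusted p = 0.035), close to its wild-type step of 1.53, with a difference of the steps of -0.17 (adjusted p = 0.88).

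The largest difference of all belonged to AT1G18830, for which RefSeq lists the synonym SEC31A, the name of a coat protein of vesicles that leave the endoplasmic reticulum. Its level was 3.15 and 2.92 on wt solid, 2.48 and 2.27 on fh1-1, 4.12 and 4.97 on wt liquid and 4.81 and 4.73 on SMIFH2. The fh1-1 arrays were the lowest of the 8, and SMIFH2 lay 2.40 ± 0.25 above them (limma adjusted p = 0.0084). AT1G44130 rose from 3.75 and 4.16 on fh1-1 to 6.34 and 6.30 with SMIFH2, a difference of 2.37 ± 0.28 (limma adjusted p = 0.013). Wild type passed over a wider span at this locus, from 4.0 and 4.36 on solid to 7.89 and 6.97 in liquid medium, and its wt liquid arrays were the highest of the 8. SMIFH2 minus liquid control was -1.11 there (limma adjusted p = 0.025).

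AT2G43620 read 2.45 and 2.16 on wt solid, 3.26 and 3.38 on fh1-1, 5.35 and 5.41 on wt liquid and 5.03 and 5.15 on SMIFH2. Its fh1-1 arrays stood between wt solid and the liquid groups, the SMIFH2 minus fh1-1 difference was 1.77 ± 0.16 (limma adjusted p = 0.0035), and the impaired step minus the wild-type step was -1.30 (adjusted p = 0.034). AT1G72920 had another shape, with 2.52 and 2.33 on wt solid, 4.06 and 3.64 on fh1-1, 3.05 and 3.46 on wt liquid and 5.51 and 5.68 on SMIFH2. Both impaired groups were above both wild types, and SMIFH2 exceeded fh1-1 by 1.75 ± 0.20 (limma adjusted p = 0.012). The wild-type medium step of AT1G72920 was 0.83, beside a difference of 2.34 between SMIFH2 and its liquid control.

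The other 5 higher genes of this class, AT1G66920, AT4G18250, AT1G65500, AT3G47090 and AT1G59865, were named after their values were seen and differed by 0.95 to 1.71. AT1G66920 was the largest of these at 1.71 ± 0.15, from 3.0 and 2.87 on fh1-1 to 4.61 and 4.67 on SMIFH2. AT1G59865 was the smallest at 0.95 ± 0.14, from 2.27 and 2.24 to 3.12 and 3.30. The 3 genes lower in liquid in both settings were AT5G10695, AT5G17090 and AT5G15360. AT5G10695 read 5.63 and 5.53 on fh1-1 and 3.96 and 3.94 on SMIFH2, a difference of -1.63 ± 0.16 (limma adjusted p = 0.0061), with 4.27 and 4.58 on wt solid and 3.51 and 3.64 on wt liquid, so that its fh1-1 arrays were the highest of the 8. AT5G17090 read 5.71 and 5.36 on wt solid, 5.56 and 5.88 on fh1-1, 3.88 and 3.91 on wt liquid and 4.25 and 4.15 on SMIFH2; its difference of -1.52 ± 0.18 (limma adjusted p = 0.012) lay near the wild-type step of -1.64. AT5G15360 read 5.90 and 5.97 on fh1-1 and 4.61 and 4.95 on SMIFH2, where wt solid had 7.06 and 7.25, and the SMIFH2 arrays were the lowest of the 8.

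Counted over arrays rather than by calls, 14 of the 24 genes had all 4 liquid arrays above all 4 solid arrays and 4 had them all below, whatever the genotype or drug. Over all genes these patterns occurred in 1.36% and 2.40%. This share among the 24 is partly fixed by their choice, since the SMIFH2 and fh1-1 arrays of each do not overlap. The pattern in which all 4 impaired arrays stood above or below all 4 wild-type arrays held in 12.7% and 14.2% of all genes, or 2095 and 2353 genes, and in 2 and 0 of the 24. The fh1-1 arrays stood above the other 6 in 3 of the 24 and below them in 7 (7.35% and 7.19% of all genes). The SMIFH2 arrays stood above the other 6 in 10 and below them in 1 (4.83% and 6.24%). These shares are partly fixed in the same way.

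A smaller class differed between SMIFH2 and fh1-1 without a called wild-type medium step, 6 genes higher and 2 lower. BGLU28 (AT2G44460), a beta-glucosidase known as a marker of sulfur shortage that releases sulfur from glucosinolates, read 5.48 and 5.17 on wt solid, 4.16 and 3.87 on fh1-1, 4.70 and 4.70 on wt liquid and 5.21 and 5.36 on SMIFH2. The fh1-1 arrays were the low ones and the SMIFH2 arrays lay inside the range of wt solid. The difference was 1.27 ± 0.17 (limma adjusted p = 0.023), the wild-type step went the other way at -0.62, and the steps differed by 1.89 (adjusted p = 0.014). The sulfur list, with APS3, APS4, OASA2 and SIR of sulfate reduction and cysteine synthesis, had 0 of 4 members called, differences of -0.12 to 0.21 and a median of 0.08.

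AT3G28155 was higher in fh1-1, at 3.40 and 3.60, than on SMIFH2, at 2.09 and 2.12, while wt solid had 1.26 and 1.54 and wt liquid 1.4 and 1.38. Both wild types and SMIFH2 lay under the 25th percentile there, the difference was -1.40 ± 0.16 (limma adjusted p = 0.012), and the steps differed by -1.39 (adjusted p = 0.028). AT5G08460 read 2.64 and 2.67 on wt solid, 3.48 and 3.33 on fh1-1, 2.24 and 2.40 on wt liquid and 2.35 and 2.10 on SMIFH2, a difference of -1.18 ± 0.16 (limma adjusted p = 0.022). Its fh1-1 arrays stood above the other 6.

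The other 5 higher genes of this class were AT3G48640, AT5G23830, AT1G24145, AT2G26620 and AT5G06280, named after their values were seen. AT3G48640 read 2.28 and 2.32 on fh1-1 and 4.02 and 4.02 on SMIFH2, a difference of 1.72 ± 0.23. AT5G23830 read 7.04 and 7.11 on wt solid, 5.78 and 6.21 on fh1-1, 6.89 and 6.32 on wt liquid and 7.44 and 7.74 on SMIFH2, so that fh1-1 lay under its own wild type and SMIFH2 above its own. Its difference was 1.59 ± 0.22, and the steps differed by 2.06 (limma adjusted p = 0.024). AT1G24145 and AT2G26620 had their SMIFH2 arrays above the other 6, at 3.55 and 3.38 and at 2.22 and 2.56, with differences of 1.29 ± 0.16 and 1.27 ± 0.18. AT2G26620 stood at 1.08 and 1.16 on fh1-1, a low level on this scale. AT5G06280 differed by 1.18 ± 0.16, with 3.30 and 3.13 on fh1-1, the lowest of the 8 arrays, and 4.27 and 4.51 on SMIFH2.

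A single gene ran against the wild-type medium step. AT4G12545 fell in wild type from 4.02 and 4.37 on solid to 3.48 and 2.94 in liquid medium, but was higher on SMIFH2, at 4.53 and 4.83, than on fh1-1, at 3.0 and 3.12. Its difference between the impaired groups was 1.62 ± 0.21 (limma adjusted p = 0.022) and the steps differed by 2.61 (adjusted p = 0.011). The step difference contains the SMIFH2 minus fh1-1 difference that chose the 24, so a share among them is partly fixed in advance. Its test passed for 6 of the 24 and for 123 of all genes (0.743%), 59 with a higher (0.356%) and 64 with a lower (0.387%) impaired step. That count was 16 without wt solid array 2, 7 and 2 without fh1-1 array 1 and 2, 79 without wt liquid array 2, 9 and 4 without SMIFH2 array 1 and 2, and 3 over every probe set.

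Seen from the side of the medium, most genes that moved in wild type differed little between the impaired groups. The 368 genes higher in wild-type liquid (2.22%) had a median wild-type step of 0.97 and a median SMIFH2 minus fh1-1 difference of 0.11, with quartiles of -0.07 and 0.41. The 411 lower genes (2.48%) had medians of -0.94 and -0.09, with quartiles of -0.27 and 0.10. The impaired difference had the direction of the wild-type step in 235 of the 368, or 63.9%, and in 252 of the 411, or 61.3%. It was at least 0.5 times as large in 49 and 39 genes. Its 95% interval lay within 2-fold in 301 (81.8%) and 365 (88.8%), against 95% of all genes. These genes were chosen for a large wild-type step, which raises that step and not the impaired difference, so the sizes are not on equal terms. Of the 24 genes 16, or 66.7%, were among the 779, which is 2.05% of the 779. Both calls use the same spread for each gene, so they are not independent. Across all genes the impaired and wild-type differences correlated at r = 0.17 with a slope of 0.11, and across the 779 at r = 0.43 with a slope of 0.15. The points share an array type and a normalization but no array, and genes are not independent. Over all genes the median absolute wild-type step, 0.191, was close to its median standard error, 0.178, and such noise lowers a slope. Without wt solid array 2 the wild-type step was called in 284 genes, without wt solid array 1 in 509 and without wt liquid array 2 in 489.

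**Figure D4:**
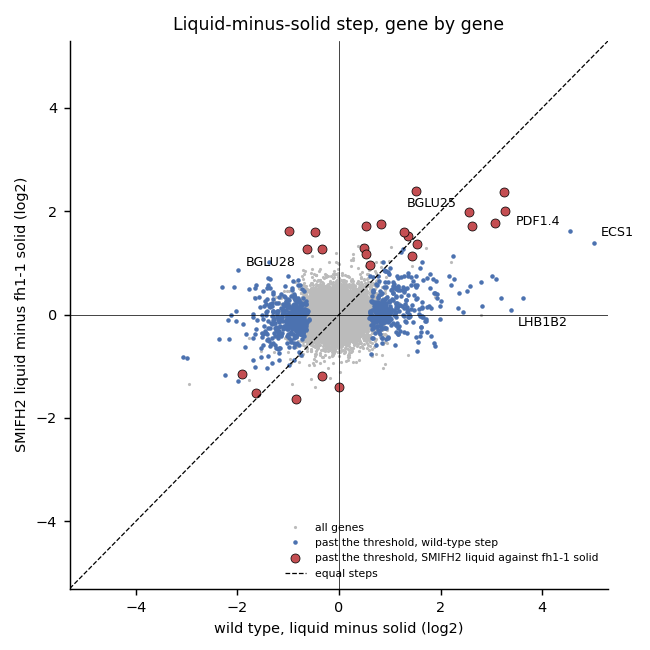
Difference SMIFH2 liquid minus fh1-1 solid (vertical, log2) against wild-type liquid minus wild-type solid (horizontal, log2), a point per gene, with genes past the threshold in either comparison coloured. The 779 genes of the wild-type step lie near the horizontal axis more than along the dashed line of equal steps, with slope 0.15, and PDF1.4 and BGLU25 are among the few toward that line.

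CHX16 and SWEET3, named genes with large wild-type steps chosen after their values were seen, differed little between the impaired groups. Others followed the wild-type step further, such as PRXCA at 1.14 beside 2.25, ATPMEPCRD at -1.04 beside -1.41 and RTFL7 at -0.82 beside -1.54. CHX16 (AT1G64170), a cation/proton exchanger, rose in wild type from 3.71 and 3.10 to 5.79 and 5.76, but stood at 5.33 and 5.56 on fh1-1 and 5.82 and 5.92 on SMIFH2. The impaired step was 0.42 ± 0.20 and the wild-type step 2.37, a difference of -1.95 (limma adjusted p = 0.022), and fh1-1 on solid medium lay near the liquid level of wild type. SWEET3 (AT5G53190), of a family of sugar transporters, went from 3.72 and 3.61 to 2.25 and 2.20 in wild type and stood at 1.73 and 1.93 on fh1-1 and 2.04 and 2.04 on SMIFH2. Its steps differed by 1.65 (limma adjusted p = 0.014), with both impaired groups under the 25th percentile. Each of these 2 step differences missed the threshold without wt solid array 2 or any array of the impaired groups, and that of CHX16 also without wt liquid array 2 (adjusted p up to 0.14 over 15 alternatives).

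The measured formins, which do not include FH1, showed no called difference. Of a list of 21 formin genes 11 were measured, 0 were called, 0 had an unadjusted p under 0.05 (7.26% of all genes), and the median difference was -0.09, against -0.02 over all genes. Values ran from -0.57 ± 0.31 for AT5G07650 (interval -1.25 to 0.12) to 0.28 ± 0.21 for AT3G32400. AT5G07760 gave -0.31 ± 0.32 (interval -1.03 to 0.42), and in the other 9 the interval lay within 2-fold. These included AT2G43800 at -0.09 ± 0.23, AT2G25050 at -0.03 ± 0.17, AT1G59910 at -0.03, AT3G05470 at -0.13, AT3G07540 at 0.12, AT1G42980 at 0.14, AT5G48360 at -0.11 and AT5G58160 at -0.20. The actin cytoskeleton list, whose measured members are actins, LIM proteins, NET actin-binding proteins, myosins and subunits of filament-nucleating complexes among others, had 0 of 26 members called (1 at an unadjusted p under 0.05), a median of -0.10 and every interval within 2-fold. Its ends were WLIM2a (AT2G39900), an actin-bundling LIM protein, at -0.38 ± 0.15, and the myosin XIH (AT4G28710) at 0.35 ± 0.17. Of 29 microtubule genes 0 were called (1 unadjusted), the median was 0.03, and the beta-tubulin TUB7 (AT2G29550) marked the upper end at 0.45 ± 0.18.

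The photosynthetic genes were at nearly the same level in both impaired groups, although most were higher in each than in its own wild type. Of 8 genes of photosystems and antennae 7 were called higher in fh1-1 than in its wild type (10.9% of all genes), with a median of 1.58, and 5 were called higher with SMIFH2 than in liquid control (7.78% of all genes), with a median of 0.91. Between SMIFH2 and fh1-1 0 were called, 0 had an unadjusted p under 0.05, and the median difference was 0.02. PSAN (AT5G64040), a subunit of photosystem I, read 6.91 and 6.91 on wt solid, 8.11 and 7.95 on wt liquid, 10.19 and 9.95 on fh1-1 and 9.94 and 10.12 on SMIFH2, a difference of -0.04 ± 0.16. PSBW (AT2G30570) of photosystem II read 8.63 and 8.36 on wt solid, 9.56 and 9.68 on wt liquid, 11.16 and 11.16 on fh1-1 and 11.22 and 11.20 on SMIFH2. In both genes the wild types parted by medium and the impaired groups did not. The 4 Calvin cycle genes, all called higher than each wild type with medians of 2.15 and 1.48, were not called between the impaired groups (0 unadjusted); they differed by -0.10 for SBPASE to 0.28 for TRXF2 and had a median of 0.10. All 8 genes of the chloroplast NDH complex and its assembly were positive, from 0.02 to 0.32, but 0 were called and 0 had an unadjusted p under 0.05; their medians were 0.17 between the impaired groups, 1.31 for fh1-1 and 1.13 for SMIFH2. The shoot marker sums, given above, also lay higher in both impaired groups than in both wild types. However, RCA, PRK, SBPASE and HPR in these sums are themselves genes of photosynthesis or photorespiration. The other shoot markers were mixed. From liquid control to SMIFH2, YAB2 and YAB3 changed by -0.34 and -0.21, and YAB5, SPCH and FMA by 0.62, 0.51 and 0.06. From wild type to fh1-1 they changed by 0.36 and 0.03, and by 1.54, 1.13 and 1.11. The part of the shoot markers in the result was not tested.

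The plastid-encoded genes formed the list with the most members, 63, and 0 were called and 0 had an unadjusted p under 0.05. Their differences were small and mostly below 0, with 53 negative, a median of -0.06 and a range from -0.42 for psbT to 0.19 for psbM, and all 63 intervals lay within 2-fold. The light regime differed between the groups on the last day, and genes tied to light and the day cycle differed by less than 2-fold, none of them called. Of 3 clock genes COR27 (AT5G42900), a cold- and light-regulated repressor of the clock, read 6.18 and 6.17 on wt solid, 6.53 and 6.19 on wt liquid, 4.18 and 4.08 on fh1-1 and 3.75 and 3.52 on SMIFH2. Its SMIFH2 arrays were the lowest, at -0.50 ± 0.17 from fh1-1, which did not pass (limma adjusted p = 0.54). GI (AT1G22770), GIGANTEA, at -0.20 ± 0.26 and TIC (AT3G22380) at 0.09 ± 0.14 were the other 2, for a list median of -0.20. In light signalling HYH (AT3G17609), a bZIP factor close to HY5, gave 0.37 ± 0.18 and FHL (AT5G02200), a phytochrome A import factor, -0.15 ± 0.14. DFR (AT5G42800), the anthocyanin enzyme that light induces, read 6.20 and 5.50 on fh1-1 and 6.33 and 6.47 on SMIFH2, a difference of 0.55 ± 0.22 with an interval of 0.06 to 1.05 (limma adjusted p = 0.63), and was between 2.64 and 2.91 on all wild-type arrays. The flavonoid list had 0 of 7 called, with DFR alone at an unadjusted p under 0.05.

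Of 8 genes of carbon starvation and branched-chain amino acid breakdown 7 had negative differences, with a median of -0.18, and 0 were called. MCCB (AT4G34030), a subunit of methylcrotonyl-CoA carboxylase in leucine breakdown, gave the largest value, -0.37 ± 0.15, with an unadjusted p under 0.05. Among stress and detoxification lists, 0 of 15 glutathione transferases, 0 of 52 UDP-glycosyltransferases, 0 of 24 cytochromes P450 and 0 of 9 genes of the xenobiotic response were called, with medians of -0.01, 0.09, 0.11 and -0.01. At an unadjusted p under 0.05, which 7.26% of all genes reached, these lists held 1, 9, 6 and 1 genes; the share called over all genes was 0.145%. COR15A (AT2G42540), a cold-regulated chloroplast protein, was 5.58 and 5.63 on fh1-1 and 4.84 and 4.99 on SMIFH2, a difference of -0.69 ± 0.20, and CML38 (AT1G76650), a calmodulin-like protein, was 6.02 and 6.44 on fh1-1 and 5.18 and 5.48 on SMIFH2, at -0.90 ± 0.21. Neither passed over all genes (limma adjusted p = 0.47 and 0.27), with arrays that did not overlap, as in 40.6% of all genes.

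Of 23 auxin genes 15 were negative with a median of -0.08, of 23 expansins 16 were negative with a median of -0.10, and of 60 pectin and other wall enzymes 34 were negative with a median of -0.07; 0 were called in any of these, and 3, 5 and 8 had an unadjusted p under 0.05 (7.26% of all genes). EXPA9 (AT5G02260), a wall-loosening expansin, was the furthest up among expansins, from 6.10 and 6.41 on fh1-1 to 6.98 and 7.08 on SMIFH2, with 8.40 and 8.21 on wt solid and 8.51 and 8.22 on wt liquid. Its SMIFH2 arrays lay between fh1-1 and the wild types, at 0.78 ± 0.18 from fh1-1 (limma adjusted p = 0.26). The root list of ER bodies and jacalin lectins, whose wild-type step had a median of -0.74 with 6 of 12 members called lower in liquid (2.48% of all genes), had a median of 0.05 between the impaired groups and 0 members called (1 unadjusted). PYK10 (AT3G09260), the main beta-glucosidase of root ER bodies, stood at 12.34 and 12.39 on fh1-1, 12.19 and 12.24 on SMIFH2, 12.41 and 12.49 on wt solid and 11.95 and 11.97 on wt liquid. The lists with called members were 2 of the 39 with at least 3 measured: jasmonate and wounding, with PDF1.4 as 1 of 20, and glucosinolates with beta-glucosidases, with BGLU25 and BGLU28 as 2 of 28, where the share over all genes was 0.145%. Across the 39 lists, which hold 589 genes, the median difference ran from -0.20 to 0.20.

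**Figure D5:**
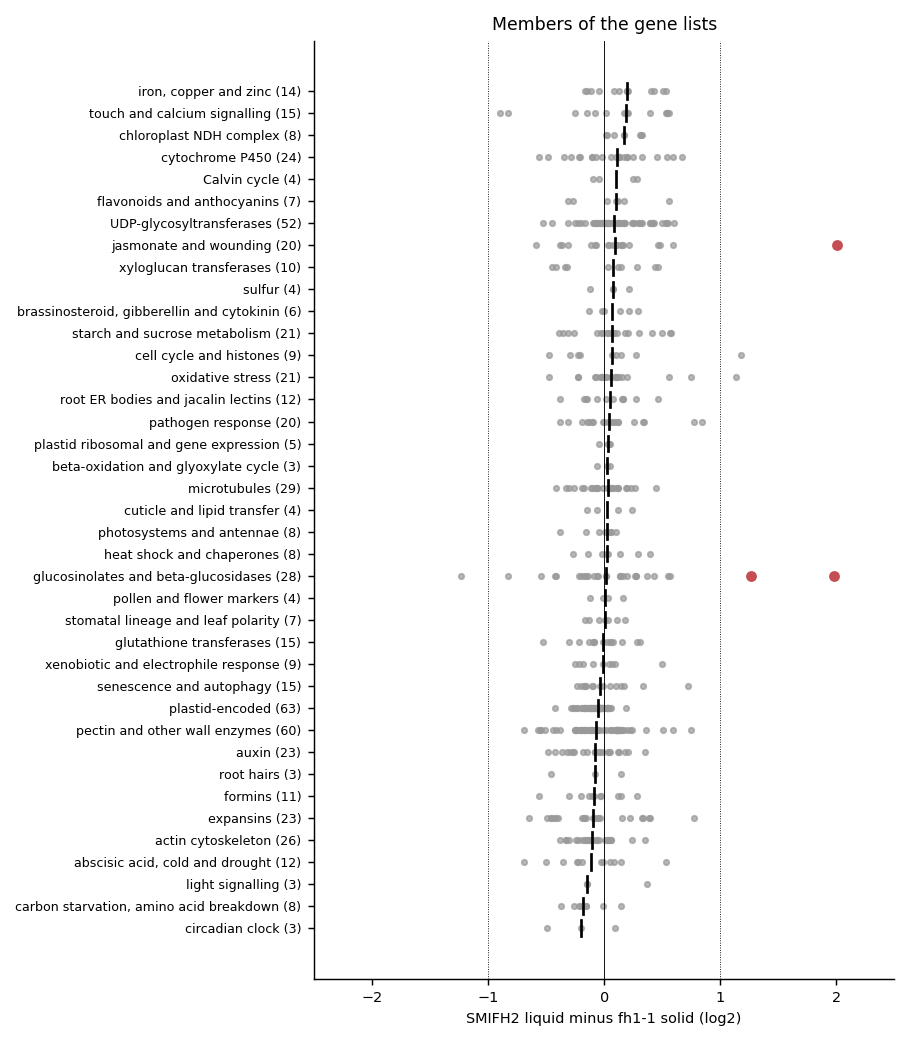
SMIFH2 liquid minus fh1-1 solid difference (log2) of each measured member of the 39 gene lists with at least 3 measured members; grey points did not pass the test, red points did, black bars are list medians, brackets give the number measured, and dotted lines mark 2-fold. All list medians lie within -0.20 to 0.20, and the red points are PDF1.4, BGLU25 and BGLU28.

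Of the 64 genes that differed at least 2-fold 41 did not pass the test, and 5 of these have a symbol. BGLU47 (AT4G21760), a beta-glucosidase, read 4.65 and 3.92 on fh1-1 and 3.11 and 3.0 on SMIFH2, a difference of -1.23 ± 0.23 (limma adjusted p = 0.15). ATPMEPCRD (AT2G43050), which belongs to the pectin methylesterases, read 5.22 and 4.83 on fh1-1 and 4.17 and 3.81 on SMIFH2, at -1.04 ± 0.19 (adjusted p = 0.12), and both stood under wt solid, at 6.94 and 6.88. PRXCA (AT3G49110), a peroxidase, gave 1.14 ± 0.30 (limma adjusted p = 0.38), the histone H2B gene HTB11 (AT3G46030) gave 1.18 ± 0.28 (adjusted p = 0.29), and ECS1 was described above.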

How the data were processed

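The NASC service labelled total RNA of whole seedlings, hybridized it to Affymetrix arrays and scanned them, according to the labels' protocols. The authors deposited log2 levels made by RMA, and per the submitters' processing notes they used Affymetrix Expression Console 1.4 and Transcriptome Analysis Console 3.1. RMA subtracts background, sets the arrays to a common distribution and merges a probe set's probes into a single level, so the arrays were not normalized independently. The table holds 38408 probe sets on 8 arrays. The platform annotation given paired 16746 probe sets with exactly 1 gene; 758 paired with several genes and 20904 it does not list were left out of the gene tests. The brightest probe set stood for each of the 165 genes with several, which left 16552 genes, 1804 of them with a symbol and 14748 with a locus code only. Names were matched to RefSeq (TAIR10.1); no build was stated for the array, and no coordinates are given.

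Group means were compared in limma 3.58.1 (R 4.3.3) with all 8 arrays and 4 groups in a single fit, since 2 arrays per group alone leave little to estimate the spread (4 residual and 5.81 prior degrees of freedom). P-values were adjusted by Benjamini-Hochberg over all 16552 genes, with a threshold of 0.05. The median standard error was 0.178, and the number of arrays limits the precision. P-values measure the spread between pools of seedlings. Scan dates and batches are not given in the sources used here, so their part was not tested.

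The comparison, the genes and the 48 gene lists were chosen with earlier results of these data known, and the lists are described by counts and medians without a list test. Symbols that RefSeq gives to another gene were kept out of the lists. Genes were named by rule: called genes with a symbol whose arrays did not overlap, the 4 largest called differences in each direction among locus codes, up to 3 called members of each list, the 8 named genes with the widest range of group means, and all measured formins. The other called genes, list examples and 2-fold genes were named after their values were seen. The 6 measured root markers are 3 beta-glucosidases and 3 jacalin lectins, all also in the root ER body list, and RCA, PRK and SBPASE among the shoot markers are also Calvin cycle genes.

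On simulated data with 16552 genes, 200 of them changed, the fit found, of 50 genes at each size, 11 at 1.5-fold, 44 at 2-fold, 49 at 3-fold and 50 at 4-fold. It made 165 calls, 11 of them false, and 0 calls when no gene was changed. The simulated spread was limma's moderated estimate, and many planted changes ease the adjusted threshold. The shares found therefore do not carry over to the direct comparison, which had 24 calls. There, 41 of the 64 genes at least 2-fold apart missed the threshold. Alternatives changed the arrays (only the 4 compared, or each left out in turn), the features (every probe set, no genes from the third with the lowest level, a mean over the probe sets of a gene), the normalization (cyclic loess, quantile) and the model (a block for the repeat number, a trended robust prior). A group left with 1 array is then assumed to vary like the others. Promoter motifs were not analysed here. Python 3.11.15 with matplotlib 3.10.9 drew the figures.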

Additional observations from a re-analysis of the deposited data

Results flagged for a closer look

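Among the genes named by rule and the called genes, the impaired liquid-minus-solid step, SMIFH2 minus fh1-1, differed from that of wild type in 8. This was limma's test of the difference at an adjusted p under 0.05, which 123 genes passed in all (0.743%). Most of the genes searched were chosen for a called SMIFH2 minus fh1-1 difference or a wide range of group means. Both enter the step difference, so the number found is partly fixed by the choice. The impaired step exceeded the wild-type step by 2.61 in AT4G12545 (adjusted p = 0.011), 2.06 in AT5G23830 (0.024), 1.89 in BGLU28 (0.014) and 1.60 in AT2G26620 (0.028). The wild-type step itself was called in AT4G12545 alone of these 4; in the other 3 it did not pass, and the wild-type arrays of AT2G26620 were all at a low level. The impaired step minus the wild-type step was -3.63 in ECS1 (adjusted p = 0.046), -3.29 in LHB1B2 (0.0016) and -1.30 in AT2G43620 (0.034). In AT3G28155 it was -1.39 (0.028), where both wild-type groups were near the bottom of the scale. LHB1B2 passed with each of the 8 arrays left out, BGLU28 and AT4G12545 with 4 of them, AT5G23830 with 2, ECS1, AT2G43620 and AT2G26620 with 1, and AT3G28155 with 0, and in all 8 genes the sign held.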

How the results depend on the processing

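The count of 24 genes was 15 with only the 4 arrays compared, 12 with the replicate block, 38 with a trended robust prior, 0 over every probe set, and 0 to 24 with 1 array left out. It was 22 to 25 with cyclic loess, quantile normalization, averaged probe sets or without the dimmest genes. Of the 24 genes 14, 12 and 23 remained in the first 3 of these. The count of 123 genes whose steps differed was 77 with the replicate block, 3 over every probe set, 296 with the trended prior, and 2 to 117 with 1 array left out. The cause of these changes was not tested. Leaving out an array leaves fewer arrays. The fit over every probe set has more features in the adjustment, and it also estimates the prior spread anew from all of them, which changes the unadjusted p-values. The mean correlation of the SMIFH2 and fh1-1 array pairs, 0.9901, was 0.9820 over every probe set, 0.9852 without the dimmest genes and 0.9898 with cyclic loess. Their mean median difference, 0.180, was 0.213 over every probe set, where the 2 SMIFH2 arrays correlated at 0.982 and the pairs of SMIFH2 and fh1-1 at 0.981 to 0.983. The repeat numbers do not pair the samples: deviations of same-numbered fh1-1 and SMIFH2 arrays correlated at 0.01 across genes, and at -0.06 to 0.01 over all pairs of groups. No called gene changed direction in any of the 16 alternatives, which was largely fixed in advance, as said above.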
